A study of Homo sapiens with 8 samples.

Results

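Open chromatin was compared between 2 human lung cancer cell lines, HCC44 and H1975, in the untreated state. The members were the 4 DMSO samples of a series of 8, 2 for each line, and the 65350 regions formed by merging their overlapping peaks. The assay was ATAC-seq, in which a transposase cuts and tags accessible DNA, and the files were 1 list of called peaks per sample. All 4 samples received the solvent DMSO for 96 h and were amplified for 11 PCR cycles, and the labels give the genotype of both lines as WT and the tissue as lung. H1975 and HCC44 are established lines of non-small cell lung cancer, and H1975 carries, as background, an activated EGFR gene. The other 4 samples of the series received ACBI1, a degrader of the SWI/SNF ATPases SMARCA2 and SMARCA4 and of PBRM1, at a labelled dose of 1 mM for the same 96 h, and were used here only to look up regions found in the DMSO samples. Each line stands for 1 tumour, so a difference between them cannot be told apart from a difference between any pair of individuals. Nothing in the labels says that replicates were separate cultures, so p-values measure the spread between these samples, which may be technical.

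Promoters and enhancers of active genes are usually accessible, and the set of accessible distal regions differs widely between cell types, whereas promoters of genes that all cells use are open in most. Chromosome 19 carries the large clusters of genes for zinc finger proteins with a KRAB domain, repressors that recruit TRIM28 and are known for silencing transposable elements. Lung epithelium is marked by factors such as NKX2-1 and FOXA1, and tumours can keep, lose or exchange such lineage programmes.

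The DMSO lists held 43504 and 41003 peaks on chromosomes 1 to 22 and X in H1975, and 50323 and 49921 in HCC44. The H1975 peaks covered 30.4 and 26.9 Mb and the HCC44 peaks 40.2 and 41.3 Mb. The depth in reads is unknown, and a gene or region without a listed peak was not thereby measured as closed. The authors' enrichment values also differed by line. At the promoters with a peak in all 4 samples, H1975 peaks had a median fold enrichment of 7.0 and 7.46, whereas those of HCC44 had medians of 5.54 and 5.06. A threshold on fold enrichment therefore removed more HCC44 peaks than H1975 peaks, and results that turn with such a threshold are named where they occur.

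In the lists as deposited, which were longer in HCC44, more regions were found in HCC44 alone than in H1975 alone. That order turned with a fold threshold. A region was assigned to a line when both its samples had a peak there and neither sample of the other line did. On this rule 13156 regions, 20.1% of all, belonged to HCC44 only and 6859, 10.5%, to H1975 only, while 29092 had a peak in all 4 samples. With peaks of at least 5-fold enrichment the order turned, to 8255 and 10787. With equal numbers of peaks per list the counts were 8286 and 8119 by −log10 q and 10758 and 10432 by fold. Equal lengths bring the counts of the lines close by construction, so that setting is no check on the difference. The HCC44-only regions made up 29.2% of the 45126 regions found in both HCC44 samples, and the H1975-only regions 18.1% of the 37986 found in both H1975 samples. Between replicates, 9758 regions (17.8% of those in either) appeared in 1 HCC44 sample but not the other, and 7238 (16%) in 1 H1975 sample but not the other.

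Regions without a peak in all 4 samples, line-specific or not, lay away from genes' ends more often than the shared ones. A gene boundary was defined as the 1 kb on each side of the start or the end of a protein-coding gene. Boundaries were touched by 34.9% of the regions shared by all 4 samples, by 7.69% of the HCC44-only regions and by 8.97% of the H1975-only regions. Of the remaining 16243 regions, mostly with a peak in 1 sample only, 5.75% touched a boundary. With the 5-fold minimum the H1975-only share was 24.0%. The median distance to the nearest gene end was 8.74 kb for shared, 27.9 kb for HCC44-only, 23.4 kb for H1975-only and 25.4 kb for the remaining regions. Of the distal regions, 49.6% of the HCC44-only, 51.2% of the H1975-only and 52.1% of the shared lay inside a gene.

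The larger number of HCC44 peaks was found mainly away from gene boundaries. Boundary peaks numbered 11040 and 11021 in H1975, against 11604 and 11597 in HCC44. Their log2 difference was 0.07, and its sign turned with a minimum −log10 q of 20, a 5-fold minimum or equal numbers of peaks per list. With equal numbers, fewer boundary peaks in a line go with more distal peaks by construction. Distal peaks numbered 32464 and 29982 in H1975 and 38719 and 38324 in HCC44, a log2 difference of 0.30, with a pooled replicate SD of 0.058. With the 5-fold minimum the distal difference was −0.02. With 2 samples a line the exact permutation test cannot go below p = 0.33, the value found for both measures (two-sided).

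Promoters were compared over the RefSeq windows from 250 bp before to 50 bp after the start of 15812 protein-coding genes. Of these, 8568 (54.2%) had a peak in all 4 samples and 5906 in none. The HCC44-only promoters numbered 447 (2.83%) and the H1975-only promoters 437 (2.76%). The H1975-only count was 2189 with the 5-fold minimum, when many promoters shared by both lines lost their HCC44 peak. The gene groups described next from the H1975-only promoters (zinc finger, protocadherin and histone genes) and the type IV collagen genes were picked after their values were seen, so their counts are a description without a test.

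The H1975-only promoters included 117 of the 229 promoters of zinc finger genes on chromosome 19 (51.1%), against 2.76% of all promoters. Zinc finger genes were taken as those whose symbols begin with ZNF, ZFP, ZSCAN, ZIK1 or ZIM. In the 2 H1975 samples 212 and 213 of the 229 promoters had a peak, and in the 2 HCC44 samples 95 and 92. Only 1 of the 229 was listed in HCC44 alone, 90 had a peak in all 4 samples and 15 in none. Both arms took part, with 37 of 73 such promoters on 19p and 80 of 156 on 19q listed in H1975 only. The other genes of chromosome 19 did so at 36 of 956 promoters (3.77%) and zinc finger genes on other chromosomes at 18 of 245 (7.35%). Across thresholds on q or fold, equal list lengths and leaving out any 1 sample, the zinc finger count stayed between 115 and 121. With the thresholds and equal lengths at least 111 of the 117 kept their class, which leaving out a sample cannot remove. The count for the other chromosome 19 genes was 126 with the 5-fold minimum and 122 with equal numbers of peaks ranked by fold.

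**Figure D1:**
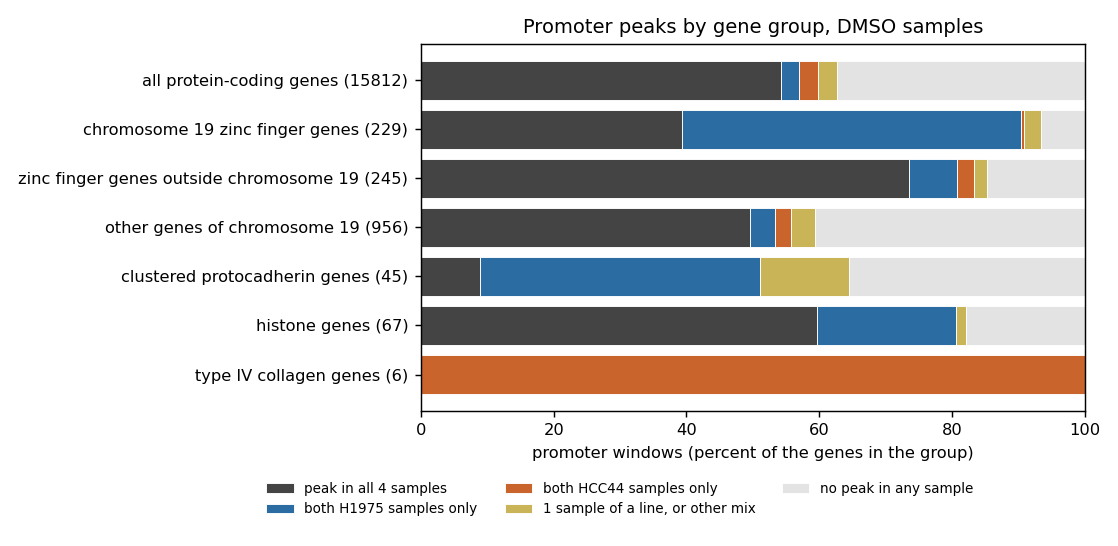
Promoter windows by gene group, as percent of the genes in each group (number in brackets), split by which DMSO samples had a peak. The H1975-only share is 51.1% for chromosome 19 zinc finger genes and 2.76% for all protein-coding genes.

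The H1975 peaks at these 117 promoters were strong. Their median −log10 q was 136 and 133 in the 2 H1975 samples, above the 84.8 and 86.4 at all promoters shared by the 4 samples in the same lists. At the 90 zinc finger promoters with a peak in all 4 samples the medians were 126 and 127 in H1975, against 62.2 and 56.8 in HCC44. Values in HCC44 there were close to that line's medians of 56.5 and 49.4 at all shared promoters. In the ACBI1 samples, 116 and 117 of the 117 promoters had a peak in H1975 and 2 and 0 had one in HCC44. For comparison, 278 and 244 of the other 320 H1975-only promoters had a peak in the H1975 ACBI1 samples and 27 in each HCC44 ACBI1 sample.

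**Figure D2:**
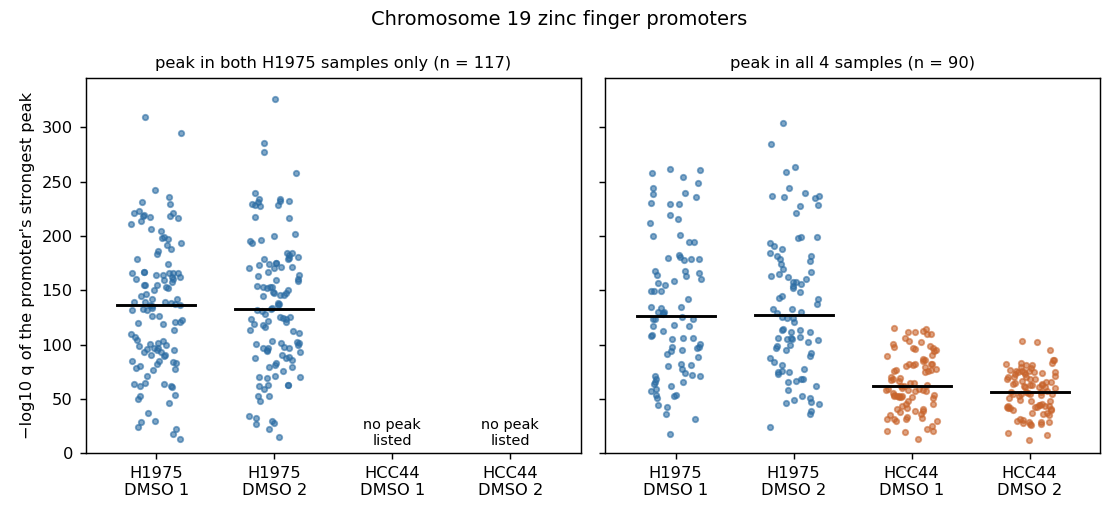
The −log10 q of the strongest peak at each chromosome 19 zinc finger promoter, by DMSO sample, for promoters listed in H1975 only (left, 117) and in all 4 samples (right, 90), with the median as a bar. The left panel has no HCC44 points because no peak was listed, whereas the right panel has HCC44 medians of 62.2 and 56.8.

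Promoter sequences of 3 zinc finger genes are shown because they carry this contrast: ZNF708 had the highest mean −log10 q of the H1975-only group, ZNF91 the largest difference in coverage of any gene, and ZNF414 the highest mean −log10 q over the 4 samples of the group they all share. They are RefSeq windows of GRCh38.p14, all on the minus strand of 19p, written 5′ to 3′: ZNF708 at chr19:21329361-21329660, ZNF91 at chr19:23395422-23395721 and ZNF414 at chr19:8514118-8514417. Capitals mark matches to CCGGAAG or its reverse complement CTTCCGG, the core bound by ETS factors.
ZNF708: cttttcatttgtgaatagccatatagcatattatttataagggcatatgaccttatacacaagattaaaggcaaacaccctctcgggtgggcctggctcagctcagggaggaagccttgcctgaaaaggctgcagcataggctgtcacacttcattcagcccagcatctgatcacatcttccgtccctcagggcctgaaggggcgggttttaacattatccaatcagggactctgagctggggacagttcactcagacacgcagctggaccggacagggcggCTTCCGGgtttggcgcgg
ZNF91: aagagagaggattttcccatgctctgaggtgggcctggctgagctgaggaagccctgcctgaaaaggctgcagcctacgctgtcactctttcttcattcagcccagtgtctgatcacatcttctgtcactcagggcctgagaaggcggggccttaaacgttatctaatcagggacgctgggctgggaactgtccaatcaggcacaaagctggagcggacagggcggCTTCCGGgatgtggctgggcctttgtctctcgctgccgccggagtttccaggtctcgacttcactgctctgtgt
ZNF414: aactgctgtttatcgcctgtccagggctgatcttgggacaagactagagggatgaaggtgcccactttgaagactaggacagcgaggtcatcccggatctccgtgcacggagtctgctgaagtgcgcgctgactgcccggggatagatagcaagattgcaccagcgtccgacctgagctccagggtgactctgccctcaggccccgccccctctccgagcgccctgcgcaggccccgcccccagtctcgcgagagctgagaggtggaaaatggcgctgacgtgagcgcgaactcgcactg

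ZNF708 had promoter peaks with −log10 q of 310 and 326 in H1975 and none in HCC44. ZNF414 had values of 249 and 285 in H1975, against 110 and 103 in HCC44 samples. The ETS letters, searched on both strands, occurred once each in the ZNF708 and ZNF91 windows and not in that of ZNF414. They were found in 48.7% of the 117 H1975-only zinc finger promoters, in 38.9% of the 90 shared by all samples, in 14.2% of all 15812 promoters and in 7.5% of the other H1975-only promoters. The 117 had a median of 20 CG dinucleotides per 300 bp, close to the 22 of the 90 shared zinc finger promoters and between the 28 of all shared promoters and the 6 of promoters without a peak.

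The same genes formed the longest unbroken stretches of line-specific regions. In a run, consecutive merged regions all belonged to 1 line. The longest H1975-only run had 31 regions over 560 kb at chr19:52748468-53308775 and crossed 17 genes, 12 of them zinc finger genes such as ZNF600, ZNF28, ZNF468 and ZNF320. The next had 23 regions at chr19:37251397-37855964, with 10 zinc finger genes among 11 (ZNF527 and ZFP30 among them). Runs of 17 regions lay at chr19:52369597-52670449, around ZNF880 to ZNF83, and at chr19:23527983-23823065, around ZNF675 and ZNF681. Of the 61 H1975-only runs of 5 regions or more, 26 lay on chromosome 19, against 1 of the 131 HCC44-only runs of that length.

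The longest HCC44-only runs were shorter and held other genes. A run of 12 regions at chr1:89128638-89483547 crossed GBP7, GBP4, GBP5 and GBP6, interferon-inducible guanylate-binding proteins. Runs of 11 regions lay at chr13:89401293-91017874, without a protein-coding gene, at chr20:8073275-8757440, over the phospholipase gene PLCB1, and at chr3:111392935-111670160, over the immune receptor gene CD96 and ZBED2. Around GBP5, the mean scaled coverage was 0 bp in H1975 and 2865 bp in HCC44, a log2 difference of 2.74 ± 0.13 (SE). The run was picked for peaks in HCC44 only, so this value describes the same peaks and is no separate test.

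Protocadherin and histone promoters were also listed more often in H1975 alone. The clustered protocadherins, cell adhesion proteins of 3 gene arrays on 5q from which single promoters are chosen, had 19 of 45 promoters in H1975 only and 0 in HCC44 only. At PCDHA11 the −log10 q was 70.2 and 59.6 in H1975, and at PCDHB16 it was 15.4 and 18.8. Of 67 histone promoters, 14 were listed in H1975 only, all on chromosome 6, and several share a peak, as H3C4, H2AC7 and H2BC7 do (−log10 q of 52.9 and 55.4). With the 5-fold minimum, 18 of the 19 protocadherin promoters kept their class but only 2 of the 14 histone promoters did. Zinc finger, protocadherin and histone genes have near-identical copies, and how the authors placed reads that match several copies is not given in the sources used here.

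All 6 type IV collagen promoters, which drive the network-forming collagens of basement membranes, were listed in HCC44 only. They stand in 3 head-to-head pairs that share a peak, so they are 3 independent loci. The −log10 q was 40.6 and 33.8 at COL4A1 and COL4A2, 28.0 and 34.5 at COL4A3 and COL4A4, and 22.6 and 20.9 at COL4A5 and COL4A6. With the 5-fold minimum 2 of the 6 kept their class.

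Gene by gene, peak coverage was measured as the base pairs covered by peaks in the gene and 50 kb either side, scaled to equal total covered length per list. It was tested by limma on log2(scaled bp + 500), and a difference on that scale depends on the added 500 bp, most of all where a line is listed at 0. Both samples of such a line then have the same value, without spread. The SE and p there rest on the other line and on the spread limma pools over genes. Of 17808 genes with a peak in at least 2 samples, 3469 (19.5%) were higher and 6123 (34.4%) lower in HCC44 at an adjusted p under 0.05. The median over all genes was −0.13 with the scaling and 0.31 without it, since the HCC44 lists are longer. Without scaling, 8622 genes were higher and 1417 lower, so higher genes made up 36.2% of the calls with scaling and 85.9% without. Genes called the same way both ways numbered 3463 higher (19.4%) and 1417 lower (7.96%), and gene groups are described by that count. Among chromosome 19 zinc finger genes, 193 of 259 tested were lower both ways and 6 higher, with a median of −1.82. This group was picked after its promoter peaks were seen, and the coverage counts the same peaks. Neighbouring genes also share windows, so the count is a description and no separate test.

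The largest differences in favour of HCC44 were at genes without a listed peak in H1975. At PDPN, which encodes podoplanin, a membrane glycoprotein of lymphatic endothelium and lung type I alveolar cells, the H1975 samples had 0 peaks and the HCC44 samples 9 each, covering 5566 and 5800 scaled bp (log2 difference 3.63 ± 0.10, SE). PLCB1, a phospholipase C gene, had 0 peaks in both H1975 samples and 10 in each HCC44 sample (3.48 ± 0.10). SOX5, a transcription factor of cartilage and neural development, had 0 and 0 against 7 and 8 peaks (3.45 ± 0.11). LRP1B, a large lipoprotein receptor often lost in lung cancer, had 0 and 0 against 8 and 11 (3.44 ± 0.13). At FLI1, an ETS factor of blood and endothelium, the values were 0 and 1 peaks in H1975 and 7 in each HCC44 sample (3.25 ± 0.20), and its call was lost with the 5-fold minimum (1.39). The rule that chose these genes asked for values without overlap between the lines. The rest of the 12 were LOC124903566, next to PCSK6, RNF217, RFTN1, POPDC3, TRPA1, an irritant-sensing ion channel, COL4A5 and MAP2K6, a kinase upstream of p38. Limma adjusted p-values of the 12 lay between 1.81e-05 and 0.000292.

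On the other side, all 12 genes were listed at 0 in both HCC44 samples. ZNF91, a KRAB zinc finger repressor of SVA retrotransposons, had 12 and 11 peaks in H1975, covering 12935 and 12671 scaled bp (log2 difference −4.73 ± 0.10, SE). ZNF816-ZNF321P had 8 and 9 peaks (−4.63 ± 0.10) and ZNF83 had 12 in each sample (−4.62 ± 0.10). Of the 12, 10 lay on chromosome 19. They included ZNF429, ZSCAN1, ZNF211, ZNF347 and ZNF331, and, as genes of another kind, CACNG7, a calcium channel subunit, with 10 and 10 peaks, and FPR1, a formyl peptide receptor of phagocytes, with 10 and 10. GRIN2A, an NMDA receptor subunit on 16p, had 13 and 12 peaks (−4.08 ± 0.11), and FGF13, an intracellular fibroblast growth factor on Xq, had 12 and 10 (−4.07 ± 0.10). The limma adjusted p was 1.81e-05 for each of the 12.

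**Figure D3:**
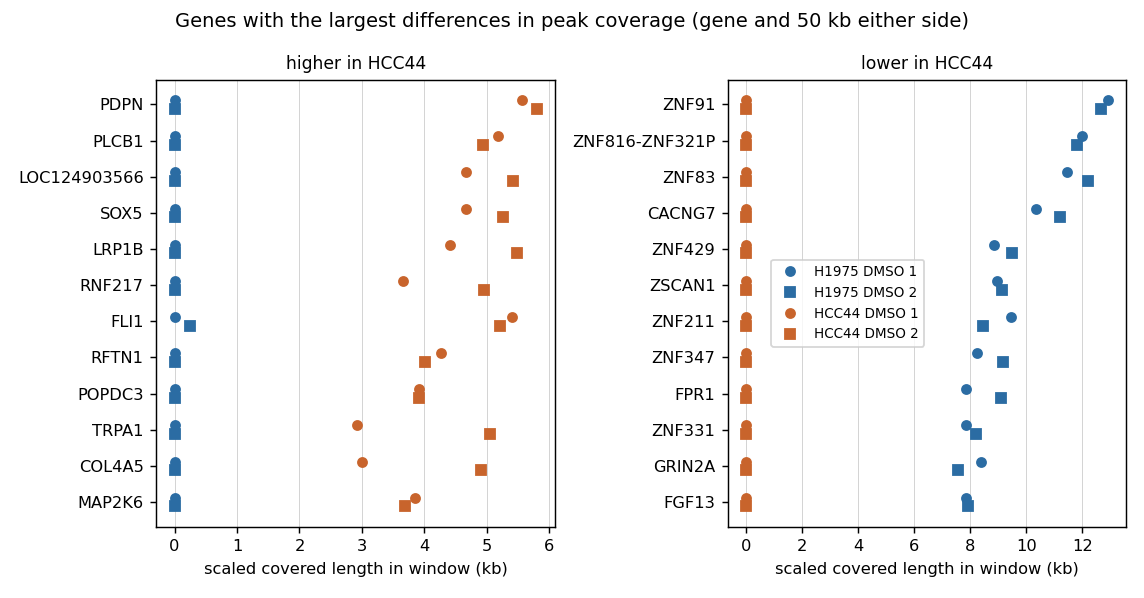
Scaled length covered by peaks (kb) in each gene and 50 kb either side, for the 12 genes with the largest differences in each direction, with 1 point per DMSO sample. Of the 24 genes, FLI1 is the only one with a point above 0 in the line with the lower coverage.

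Lung lineage loci were divided between the lines. Of 23 genes, 12 had a boundary peak in all 4 samples, NAPSA, CEBPA and FOXA2 among them, and 5 had none in any, with SFTPA2 and AGER free of peaks within 50 kb as well. NKX2-1, the lung master regulator, had 6 and 7 peaks around it in H1975 and 1 and 2 in HCC44, with 7400 and 7398 scaled bp against 433 and 944 (log2 difference −2.77 ± 0.21, SE, limma adjusted p = 0.000318). Its promoter peak was listed in both H1975 samples (−log10 q of 30.0 and 28.8) and in 1 HCC44 sample (16.1). FOXA1, a pioneer factor of endoderm, went the other way, with 1 and 2 peaks in H1975 and 6 in each HCC44 sample (1.35 ± 0.15). Of 21 tested, 7 (33.3%, against 19.4% of all genes) were higher in HCC44 both with and without scaling and 2 (9.52%, against 7.96%) were lower, NKX2-1 and NAPSA. With scaling 7, these included, were lower (33.3%, near the 34.4% of all genes). Boundary peaks were found in HCC44 only at SFTPB (surfactant protein B), AQP5 (a water channel of type I cells) and SLC34A2 (a phosphate transporter of type II cells), 13% of the list against 3.85% of all genes. None of the 3 kept this class with a minimum −log10 q of 20 or the 5-fold minimum.

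Genes of epithelial identity had a median below that of all genes with and without scaling, while its sign depended on the scaling. Of 32 tested, 5 were lower and 5 higher both ways, each 15.6%, against 7.96% lower and 19.4% higher of all genes. With scaling 22 were lower (68.8%, against 34.4% of all genes) and 5 higher. The median was −0.41, against −0.13 over all genes. Without scaling 5 were lower and 7 higher, when 1417 and 8622 of all 17808 genes were. The median was then 0.07, against 0.31 over all genes. Boundary peaks were found in H1975 only at ESRP1, GRHL2, OVOL1, ST14 and CRB3, 15.6% of the list against 2.75% of all genes. GRHL2, a grainyhead factor that maintains epithelial junctions, had 8458 and 8738 scaled bp in H1975 and 2409 and 3013 in HCC44 (−1.51 ± 0.11). ESRP1, an epithelial splicing regulator, had 7483 and 5834 against 1762 and 2241 (−1.51 ± 0.15). CRB3, an apical polarity protein, had 6229 and 6847 against 2857 and 3135 (−1.01 ± 0.09). ST14, the protease matriptase, was higher in HCC44 over its window (0.49 ± 0.10) despite its H1975-only boundary peak, and OVOL1, a factor that restrains mesenchymal genes, did not pass the test (0.07 ± 0.13). In the opposite class, EHF, an epithelial ETS factor, had an HCC44-only boundary peak and 9 and 10 peaks around it against 6 and 5 (0.48 ± 0.11), and KRT8 an HCC44-only promoter peak. CDH1 (E-cadherin) and EPCAM had boundary peaks in all 4 samples. With the 5-fold minimum SPARC alone, of the epithelial and mesenchymal genes with a boundary peak in 1 line only, kept its class.

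Of 27 mesenchymal genes tested, 7 were higher in HCC44 both ways and 0 lower, against 7.96% of all genes lower. The scaled test alone called 3 lower (11.1%, against 34.4% of all genes), with a median of −0.02 against −0.13. The higher share, 25.9%, was near the 19.4% of all genes. FBN1, the microfibril protein fibrillin, had 3 and 2 peaks in H1975 and 9 and 10 in HCC44, 755 and 545 against 4959 and 5722 scaled bp (2.35 ± 0.14). ZEB2, a repressor of E-cadherin, had 5 and 3 against 7 and 7 peaks (1.32 ± 0.18), with no boundary peak in any sample. FBN1, MMP2 (a gelatinase) and TAGLN (transgelin, of smooth muscle) had boundary peaks in HCC44 only, and SPARC, a matrix glycoprotein, in H1975 only. These were 10% and 3.33% of the 30 genes listed, against 3.85% and 2.75% of all genes. VIM and ZEB1 had boundary peaks in all 4 samples and did not pass the test (−0.09 ± 0.11 and −0.14 ± 0.19).

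Promoter windows of 1 lung, 1 epithelial and 1 mesenchymal gene are shown, each the gene of its list with a line-only promoter and the largest coverage difference, so that their CG content can be compared with the values above. They are RefSeq windows of GRCh38.p14, written 5′ to 3′: SLC34A2 at chr4:25655601-25655900 (plus strand), CRB3 at chr19:6464021-6464320 (plus strand) and FBN1 at chr15:48644921-48645220 (minus strand). HOXD4, at chr2:176151300-176151599 (plus strand), is added from the homeobox genes described next. Capitals mark CG dinucleotides.
SLC34A2: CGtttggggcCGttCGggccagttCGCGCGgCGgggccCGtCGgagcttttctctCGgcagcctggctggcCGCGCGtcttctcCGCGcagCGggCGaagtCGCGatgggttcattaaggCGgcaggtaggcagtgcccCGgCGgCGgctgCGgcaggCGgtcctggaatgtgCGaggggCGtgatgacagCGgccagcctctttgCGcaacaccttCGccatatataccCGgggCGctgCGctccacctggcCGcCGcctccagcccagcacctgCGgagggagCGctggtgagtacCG
CRB3: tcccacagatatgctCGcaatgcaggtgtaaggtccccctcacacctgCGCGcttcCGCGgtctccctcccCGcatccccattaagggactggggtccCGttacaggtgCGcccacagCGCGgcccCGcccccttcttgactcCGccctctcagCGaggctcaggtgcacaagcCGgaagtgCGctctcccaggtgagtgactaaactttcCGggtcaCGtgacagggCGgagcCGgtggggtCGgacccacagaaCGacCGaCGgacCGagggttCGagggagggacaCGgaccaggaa
FBN1: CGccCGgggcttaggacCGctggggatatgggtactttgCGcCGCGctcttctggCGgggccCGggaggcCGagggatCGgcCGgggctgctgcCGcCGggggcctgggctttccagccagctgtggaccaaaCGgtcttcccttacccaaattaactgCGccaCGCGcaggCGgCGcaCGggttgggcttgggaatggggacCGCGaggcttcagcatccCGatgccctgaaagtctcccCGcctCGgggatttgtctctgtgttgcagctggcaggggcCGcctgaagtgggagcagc
HOXD4: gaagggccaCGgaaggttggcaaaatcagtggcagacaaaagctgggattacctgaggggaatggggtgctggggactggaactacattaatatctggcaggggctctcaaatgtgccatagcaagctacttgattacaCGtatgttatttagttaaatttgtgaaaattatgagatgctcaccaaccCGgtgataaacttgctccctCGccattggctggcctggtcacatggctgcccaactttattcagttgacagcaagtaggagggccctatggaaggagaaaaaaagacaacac

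The windows held 38 CG dinucleotides in SLC34A2, 26 in CRB3, 26 in FBN1 and 4 in HOXD4. The medians were 18 for HCC44-only and 21 for H1975-only promoters. In HCC44 the promoter peak had a −log10 q of 15.7 and 12.9 at SLC34A2 and of 40.0 and 38.5 at FBN1. Their fold enrichment was 4.53 and 4.03 at SLC34A2 and 5.16 and 4.97 at FBN1. The CRB3 peak in H1975 had a −log10 q of 22 and 22.4 and a fold enrichment of 2.79 and 2.86.

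**Figure D4:**
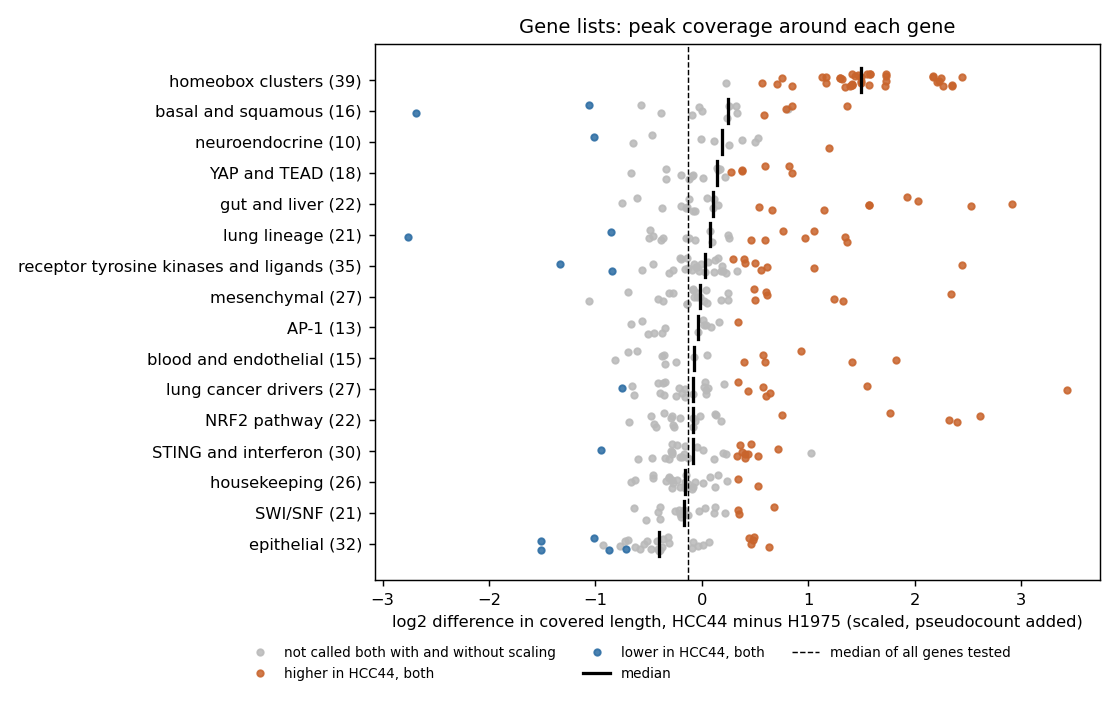
The log2 difference in scaled peak coverage around each gene (HCC44 minus H1975) for 16 gene lists, with a bar at each list's median and a dashed line at the median of all genes, −0.13. Coloured points were called the same way with and without scaling, and homeobox genes stand at the top with a median of 1.5.

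The homeobox clusters, the 4 arrays of HOX genes that give cells positional identity, were covered more widely in HCC44, by peaks of lower fold enrichment. Of 39 genes, 38 were higher both ways (median 1.5), whereas with the 5-fold minimum 10 were higher and 18 lower (median −0.22). Neighbouring HOX genes share windows, so the list amounts to 4 loci. The HOXA locus, with 50 kb either side, held 8 and 9 peaks over 5172 and 6054 bp in H1975 and 28 and 24 peaks over 24181 and 24804 bp in HCC44. HOXB had 5 and 7 peaks against 14 and 13, HOXC had 5 and 4 against 11 and 10, and HOXD had 3 and 3 against 6 and 6. Both HCC44 samples exceeded both H1975 samples at each locus. HOXA peaks had a median fold enrichment of 7.06 and 6.09 in the H1975 samples against 4.36 and 4.16 in HCC44, and 7 and 7 against 6 and 4 reached 5-fold. Peaks of at least 5-fold numbered 5 and 7 in both lines at HOXB, 5 and 4 against 2 and 1 at HOXC, and 3 and 3 against 5 and 5 at HOXD. Boundary peaks were found in HCC44 only at 13 of the 39 genes (33.3%, against 3.85% of all genes), among them HOXA2, HOXA5, HOXB6, HOXB7, HOXB8, HOXB13, HOXC8, HOXC9, HOXC11, HOXD3, HOXD4 and HOXD8. HOXD3 and HOXD4 kept this class in every list with a stricter threshold or equal lengths, and HOXB13 and HOXC8 in none of them. Leaving out 1 sample cannot remove a gene from its class, so it was no check here.

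Markers of other tissues differed at single loci. Of 22 gut and liver genes tested, 9 were higher in HCC44 both ways (40.9%, against 19.4% of all genes) and 0 lower. With scaling 3 were lower (13.6%, against 34.4% of all genes). TFF1, TFF2 and TFF3, adjacent genes for trefoil peptides of mucous epithelia, have overlapping windows, and TFF2 had a boundary peak in HCC44 only. TFF2 lost that class with a minimum −log10 q of 20, the 5-fold minimum and equal lengths by −log10 q. At TFF3 the H1975 samples had 0 peaks and the HCC44 samples 5 each (2.92 ± 0.12). CDX2, the intestinal homeobox factor, had 0 peaks in H1975 and 3 and 2 in HCC44 (1.93 ± 0.10). It had an HCC44-only boundary peak, a class that every list with a stricter threshold or equal lengths kept. SOX2, a factor of basal and squamous epithelium, went the other way with 2 and 3 peaks in H1975 and 0 in HCC44 (−2.68 ± 0.11) and an H1975-only promoter peak (−log10 q of 15.8 and 21.2). The H1975-only boundary class of SOX2 was lost with a minimum −log10 q of 20 and with the 5-fold minimum. Of the 16 basal and squamous genes 4 (25%) were higher both ways and 2 (12.5%) lower, against 19.4% and 7.96% of all genes. Of 10 neuroendocrine genes tested, 1 was higher (INSM1, 1.20 ± 0.10) and 1 lower (NEUROD1, −1.01 ± 0.11) both ways. Each was 10% of the list, against the same 19.4% and 7.96%. CHGB, a secretory granule protein, had an HCC44-only boundary peak, and UCHL1, a neuronal deubiquitinase, an HCC44-only promoter peak. Among 15 blood and endothelial genes tested, 6 (40%, against 19.4% of all genes) were higher both ways and 0 lower, with TEK at 1.82 ± 0.11 and PECAM1 at 1.41 ± 0.09. With scaling 5 of these 15 were lower (33.3%, against 34.4% of all genes). PTPRC, CD3D, MS4A1 and HBB had no boundary peak in any sample, and KDR had one in H1975 only.

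Of 22 oxidative stress genes of the NRF2 pathway, 14 had boundary peaks in all 4 samples, 5 in none and 3 in HCC44 only (13.6%, against 3.85% of all genes). In the gene fit 5 (22.7%) were higher in HCC44 both ways and 0 lower, and with scaling 7 (31.8%) were lower, shares near the 19.4% and 34.4% of all genes. NQO1, GCLM and SRXN1, widely used NRF2 targets, had promoter peaks in all 4 samples and did not pass the test. Of the aldo-keto reductases that reduce steroids and reactive aldehydes, AKR1C1 had 1 peak in each H1975 sample and 6 and 7 in HCC44 (2.33 ± 0.10). AKR1C2 had 1 and 1 against 7 and 9 (2.62 ± 0.11) and AKR1C3 1 and 1 against 6 and 8 (2.40 ± 0.15), in windows that overlap. CYP4F11, a cytochrome P450, had 0 peaks in H1975 and 1 in each HCC44 sample (1.76 ± 0.10). Boundary peaks were in HCC44 only at AKR1B10, AKR1C1 and CYP4F11, and promoter peaks at AKR1C1, AKR1C2 and CYP4F11.

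The 3 promoters are shown because an antioxidant response element, the NRF2 site, could be looked for in them: AKR1C1 at chr10:4963165-4963464 (plus strand), AKR1C2 at chr10:5003808-5004107 (minus strand) and CYP4F11 at chr19:15934818-15935117 (minus strand), from RefSeq GRCh38.p14, 5′ to 3′. Capitals mark matches to TGACNNNGC or its reverse complement GCNNNGTCA, or to the AP-1 letters TGANTCA.
AKR1C1: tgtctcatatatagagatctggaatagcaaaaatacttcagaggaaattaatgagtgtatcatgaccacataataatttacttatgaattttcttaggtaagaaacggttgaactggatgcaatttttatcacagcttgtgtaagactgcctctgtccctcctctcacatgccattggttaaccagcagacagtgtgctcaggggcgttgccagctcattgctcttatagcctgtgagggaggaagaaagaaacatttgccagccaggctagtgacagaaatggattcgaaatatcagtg
AKR1C2: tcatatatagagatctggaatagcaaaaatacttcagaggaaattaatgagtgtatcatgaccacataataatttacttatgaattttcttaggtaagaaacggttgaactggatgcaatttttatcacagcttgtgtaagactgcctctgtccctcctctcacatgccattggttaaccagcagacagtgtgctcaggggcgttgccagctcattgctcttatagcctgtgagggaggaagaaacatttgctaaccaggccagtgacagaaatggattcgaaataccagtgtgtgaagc
CYP4F11: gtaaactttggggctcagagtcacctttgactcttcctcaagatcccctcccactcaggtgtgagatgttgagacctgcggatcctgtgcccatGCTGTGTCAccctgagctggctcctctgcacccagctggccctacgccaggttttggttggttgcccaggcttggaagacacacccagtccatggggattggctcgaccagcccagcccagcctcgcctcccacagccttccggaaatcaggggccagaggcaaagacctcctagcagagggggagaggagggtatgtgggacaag

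The CYP4F11 window held 1 response element match and the AKR1C windows 0, and none of the 3 held the AP-1 letters. The response element letters occurred in 14.3% of all promoters and 10.5% of HCC44-only promoters, and the AP-1 letters in 5.76% and 7.16%. The AKR1C1 and AKR1C2 windows share a stretch of 245 identical bases, so reads there can fit either copy and the 2 promoters are not separate measurements. The −log10 q in HCC44 was 23.5 and 19.9 at AKR1C1, 14 and 20.3 at AKR1C2 and 57.4 and 39.6 at CYP4F11.

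Boundary peaks in all 4 samples were found at 20 of 36 growth factor receptor and ligand genes and at 24 of 27 lung cancer genes. EGFR, MET, ERBB2, STK11, KEAP1 and SMARCA4 were among them. At promoter windows the shares with a peak in all 4 samples were 48.4% and 85.7%, against 54.2% of all promoters. Of 35 receptor and ligand genes tested, 8 (22.9%) were higher in HCC44 both ways and 2 (5.71%) lower, shares near the 19.4% and 7.96% of all genes. FGFR2 had 2 and 1 peaks in H1975 and 0 in HCC44 (−1.34 ± 0.13), and ERBB4 had 0 in H1975 and 4 in each HCC44 sample (2.44 ± 0.12). FGFR2, RET and ALK had H1975-only boundary peaks (8.33% of the 36 genes listed, against 2.75% of all genes). Every list with a stricter threshold or equal lengths kept that class. FGFR3 had an H1975-only promoter peak and was higher in HCC44 over its window (0.40 ± 0.10). Of 27 lung cancer genes, 7 were higher both ways (25.9%) and 1 lower (RBM10, −0.75 ± 0.08). TERT, the catalytic subunit of telomerase, had 2 and 1 peaks in H1975 and 5 and 5 in HCC44 (1.55 ± 0.15), with an HCC44-only promoter peak (−log10 q of 44.1 and 42.1). TERT, LRP1B and RASSF1, a tumour suppressor, had HCC44-only boundary peaks (11.1% of the list, against 3.85% of all genes). The RefSeq promoter window of RASSF1, however, had a peak in all 4 samples.

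AP-1 genes, the Fos and Jun factors that open many distal regions, showed 1 of 13 higher both ways (BATF, 0.34 ± 0.09) and 0 lower. The higher share was 7.69%, and of all genes 19.4% were higher and 7.96% lower both ways. With scaling 6 of the 13 were lower (46.2%, against 34.4% of all genes). FOSB and BATF had HCC44-only promoter peaks, and BATF lost its HCC44-only boundary class in every list with a stricter threshold or equal lengths. Of 18 genes of the YAP and TEAD pathway, 6 were higher both ways (33.3%, against 19.4% of all genes) and 0 lower, among them the targets ANKRD1 (0.82 ± 0.10) and CCN1 (0.59 ± 0.13), and AMOTL2 had an HCC44-only promoter peak (−log10 q of 81.9 and 69.3). Of 30 STING and interferon genes tested, the pathway named in the series title, 9 were higher both ways (30%, against 19.4% of all genes) and 1 lower. The 9 included IFNGR1 (0.72 ± 0.12), IFIT3 (0.46 ± 0.11) and MX1 (0.41 ± 0.11), and the gene lower in HCC44 was IFIH1, an RNA sensor (−0.94 ± 0.11). STING1 did not pass the test (0.01 ± 0.10), and no gene of the list had a boundary peak in 1 line only. Of 21 SWI/SNF subunit genes, 3 (14.3%, against 19.4% of all genes) were higher both ways, BRD9 (0.68 ± 0.11), DPF2 and ARID2, and 0 lower. ARID1B had an HCC44-only boundary peak, a class it lost in every list with a stricter threshold or equal lengths. Of 26 housekeeping genes tested, 2 (7.69%, against 19.4% of all genes) were higher both ways and 0 lower, and 23 of 27 had boundary peaks in all 4 samples. With scaling 11 housekeeping genes were lower (42.3%, against 34.4% of all genes). On that count 3 YAP and TEAD genes (16.7%), 7 STING and interferon genes (23.3%) and 4 SWI/SNF genes (19.0%) were lower.

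The line-specific distal regions with the strongest peaks were ranked by −log10 q within each list. In HCC44 the first lay inside PCSK6, a proprotein convertase gene, at chr15:101445628-101447087 (−log10 q of 129 and 105). The second lay 11.2 kb from OTULINL at chr5:14569980-14570638 (125 and 98.0). The next 3 lay on 8q on either side of MYC. At chr8:128326955-128327355 the nearest gene was MYC, 584003 bp away. At chr8:127564966-127565456 and chr8:127507159-127508196 it was POU5F1B, 147741 and 89934 bp away. The −log10 q of these 3 regions lay between 100.1 and 121 while their fold enrichment was 3.36 to 4.71, below the 6.13 and 5.51 of the PCSK6 region. The sixth lay near SLC45A1 on 1p. MYC itself had a boundary peak in all 4 samples and a coverage difference of 0.04 ± 0.07.

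In H1975, 5 of the 6 strongest regions away from gene ends lay on chromosome 19. They stood near ZNF682 (chr19:20051801-20052852, −log10 q of 248 and 250.2) and ZNF493 (chr19:21463283-21464126), and inside ZNF331, ZNF320 and MAN2B1, a lysosomal mannosidase gene. The ZNF320 region covered the RefSeq promoter window of that gene, which starts inside the gene's annotated span, and is 1 of the 117 promoters above. The remaining region lay on chromosome 7, with ZNF722 as the nearest gene. Their fold enrichment lay between 7.96 and 10.4.

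The shares of peaks by chromosome arm differed between the lines at most arms. Each sample's peaks were counted by arm, as percent of its total, and tested by limma over the 41 arms, which gave 1 common SE of 0.02 on the log2 scale from the spread pooled over all arms. In HCC44, 17 arms (41.5%) held a higher and 19 (46.3%) a lower share at an adjusted p under 0.05. The lowest was 19p, with 1207 and 1180 peaks in H1975 (2.77% and 2.88%) and 934 and 927 in HCC44 (1.86% and 1.86%), a log2 difference of −0.61. It was followed by 16p (−0.48), Xp (−0.47) and 19q (−0.46). The highest was 18p, with 170 and 158 peaks (0.391% and 0.385%) against 286 and 286 (0.568% and 0.573%), a difference of 0.56, followed by 13q (0.50), 5p (0.46) and 21q (0.42). At all 8 arms the 2 samples of a line did not overlap those of the other, and all 8 kept their direction and call under every alternative run.

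The arm differences were larger among distal peaks than among gene boundary peaks. The largest absolute log2 difference was 0.78 for distal and 0.34 for boundary peaks, and the latter was at 19q. Of the 36 arms called, all 36 had the same sign with distal peaks alone and 27 with boundary peaks alone. At 19p the difference was −0.24 with boundary and −0.78 with distal peaks, and at 16p it was −0.06 and −0.70. In the ACBI1 samples 32 of the 36 arms had the same sign as in the DMSO samples, with −0.50 at 19p and 0.53 at 18p. Of the 17 arms with a higher share, 5q, which holds the protocadherin arrays, and 6p, which holds the histone genes above, were lower with boundary peaks alone (−0.09 and −0.05).

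**Figure D5:**
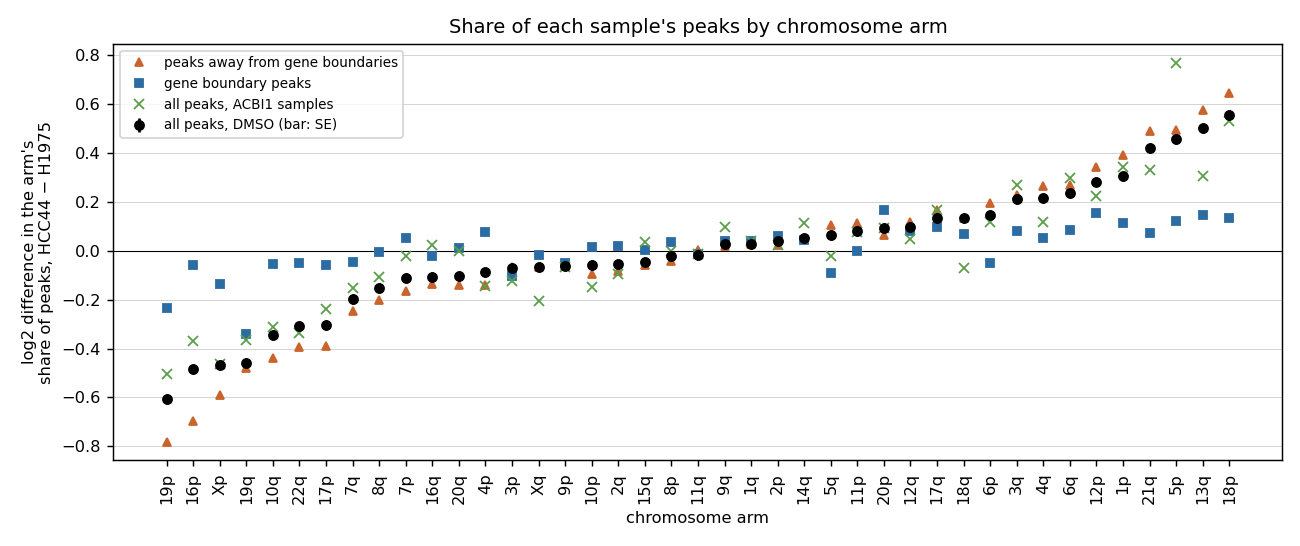
The log2 difference (HCC44 minus H1975) in the share of each sample's peaks lying on each chromosome arm, for all DMSO peaks with SE, distal peaks, boundary peaks and the ACBI1 samples. Arms are ordered by the DMSO difference, from 19p at −0.61 to 18p at 0.56, and boundary peaks stay within 0.34 of 0.

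The line-only promoters were also looked up in the ACBI1 lists, which were shorter (22115 to 27659 peaks) than the DMSO lists. Of the 447 HCC44-only promoters, 262 and 253 had a peak in the HCC44 ACBI1 samples, 58.6% and 56.6%, and 31 and 10 in the H1975 ACBI1 samples. Of the 320 H1975-only promoters outside the chromosome 19 zinc finger group, 86.9% and 76.2% had a peak in the H1975 ACBI1 samples. The DMSO peaks had a median −log10 q of 25.8 and 25.1 at HCC44-only promoters and 48.3 and 47.6 at all 437 H1975-only promoters. Their median fold enrichment was 5.05 and 4.81 at the former and 6.82 and 6.94 at the latter. The share over all promoters in the ACBI1 lists was not computed, so a difference in retention between the lines was not tested.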

How the data were processed

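The data were ATAC-seq peak lists of 4 DMSO samples, with 4 ACBI1 samples for look-up. The authors deposited a separate broadPeak list for every sample, so calling was not done on pooled samples. Reads were aligned with BWA to hg38, per the submitters' processing notes, and the peak caller and its filters are not given in the sources used here. Per the file layout, the authors deposited for each peak a fold enrichment (a ratio over the caller's background), a −log10 q and a score. Fold and −log10 q are the authors' values and served here to rank, select and describe peaks within a list, and the deposited score was not analysed. Read depth is unknown, so no counting interval was computed.

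Peaks off chromosomes 1 to 22 and X (21 to 24 per DMSO list) were left out. Peaks overlapping by at least 1 bp were merged. Genes came from a RefSeq table of GRCh38.p14 (19974 protein-coding genes), and 15812 of them (79.2%) had a promoter sequence. Chromosome arms were divided at the largest stretch free of peaks and genes, arms with under 50 peaks in a sample were left out, and chromosomes 13, 14, 15, 21 and 22 were counted as q only. Gene coverage and arm shares were tested by limma 3.58.1 (R 4.3.3) with Benjamini-Hochberg adjustment, over the 4 DMSO samples without a replicate block, and single values by the exact permutation test. Functions were tested on simulated data. Other work used Python 3.11.15, numpy 2.4.6, pandas 2.3.3 and matplotlib 3.10.9.

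Named genes were, per direction, the 12 with the largest coverage difference among those with an adjusted p under 0.05 and no overlap between lines, skipping overlapping windows, and each member of the 16 gene lists with a boundary peak in 1 line only. Named regions were the 6 strongest distal ones per line, the 4 longest runs per line and the 4 arms at each end. Gene boundaries were taken at the ends of genes only, although the planned definition also held the promoter windows, and adding these was run as an alternative. Promoter sequences were shown for genes with a promoter peak in 1 line only, or zinc finger genes. Other list members named, and those with a promoter peak in 1 line only, were chosen after their values were seen. The comparison, its members and the lists were chosen with earlier results of these data known. Alternatives were other thresholds, list lengths, windows, gene sets, pseudocounts (100 and 2000 bp), no scaling, a replicate block, all 8 samples in the fit and leaving out each sample. Equal lengths by fold, the windows at gene ends, the family counts and the look-ups in ACBI1 samples were added after seeing the data. A few list members are not reported here.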

Additional observations from a re-analysis of the deposited data

How the results depend on the processing

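The HCC44 lists are longer and have lower fold values, so the threshold decided several counts, and the cause was not tested. HCC44-only regions numbered 8670 with a minimum −log10 q of 20, 8255 with a 5-fold minimum and 8286 with equal list lengths by −log10 q. H1975-only regions numbered 10787 with the 5-fold minimum and 10432 with equal lengths by fold. HCC44-only promoters numbered 213 and 294 under the latter settings, 792 over all annotated genes and 769 over gene ends within 1 kb. H1975-only promoters numbered 2189 and 1661 under those fold settings. The boundary share of HCC44-only regions was 8.37% (q), 5.31% (fold), 6.37% (equal by fold), 17.7% (5 kb windows) and 8.68% (promoter windows added). For H1975-only regions it was 11.5%, 24.0%, 20.8%, 21.1% and 10.4%, and 10.5% with equal lengths by −log10 q. For shared regions it was 38.6%, 31.0%, 33%, 43.8% and 38.3%, and 36.2% with equal lengths by −log10 q. Leaving out 1 sample gave shares of 7.02% to 8.06%, 7.45% to 8.96% and 33.1% to 34.2%. The log2 difference in boundary peaks turned to −0.0015 (q), −0.56 (fold) and −0.032 (equal by −log10 q) and was 0.095 with 5 kb windows and 0.069 with promoter windows added. That in distal peaks was 0.13 and 0.012 with q and equal lengths and turned to −0.024 with fold. Genes called numbered 1737 higher and 3119 lower with the 5-fold minimum, and 8622 and 1417 without scaling. With boundary peaks only, 12 arms were lower. Leaving out 1 sample gave 2783 to 3043 higher and 4092 to 5785 lower genes, and 13 to 19 higher and 13 to 18 lower arms, and where it left a line with 1 sample, that sample was assumed to vary like the others. Of the 24 named genes, those of a line reduced to 1 sample could not be tested then, since the filter asks for peaks in 2 samples. Of 31 list genes with HCC44-only boundary peaks, 17, 10, 20 and 17 kept that class with q, fold, equal lengths by −log10 q and equal lengths by fold, and of 11 with H1975-only peaks 8, 5, 10 and 9.

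Replicate numbers gave no pairing. Across 17808 genes, the deviations of same-numbered samples from their group means had a correlation of −0.02, with 2 pairs, and the labels do not say what the numbers share. With the replicate block, 3748 genes were higher and 6341 lower, and 17 and 18 arms, while the boundary and distal log2 differences stayed at 0.07 and 0.30 by construction.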
